A study of Homo sapiens with 3 samples.

Results

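The genes described here encode the proteins of the cytosolic ribosome. They were chosen by name, as every RPL or RPS gene followed by a number, together with RPLP0, RPLP1, RPLP2 and RPSA. Of 103 names that begin in this way, 88 were kept as members, out of 36601 genes in the matrix, and 15 were left out: 13 S6 kinase names, 1 antisense name and the RPS19-binding protein gene RPS19BP1. The 88 members comprise 53 genes of the large subunit and 35 of the small subunit. Among them, 77 are core genes, 8 are paralogs named with a final L or L1, 1 is a read-through name joining RPS10 to NUDT3, and 2 are Y-linked, for which no level is given. All 77 core members had at least 50 CPM (UMIs of a gene per 1000000 UMIs) in every library, and 85 of the 88 members had at least 50 UMIs in each.

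The cells were islets differentiated from HUES8, a widely used line of human embryonic stem cells, and all groups share this single line. The islets were dispersed and magnetically separated with an antibody to CD49a (the integrin alpha-1 chain) into a CD49a-positive and a CD49a-negative fraction, beside unsorted cells. All 3 groups were then kept for 7 days as new aggregates before TrypLE dispersal and 10x Chromium single-cell RNA sequencing, so expression was read a week after the sort. Each group is 1 library, so no difference between groups could be tested, and the intervals given cover counting error only.

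The deposited matrices held 4512 positive, 2566 negative and 2811 unsorted barcodes, of which 2394, 1976 and 2248 were kept as cells. The kept cells held 122372168, 84568295 and 109509047 UMIs, with medians of 48538.5, 36997 and 42257.5 UMIs per cell. Beta-like, alpha-like and enterochromaffin-like clusters carried INS, GCG and TPH1 as their named markers, respectively. INS was counted in the other classes too, at 10293, 11357 and 14002 CPM in positive, negative and unsorted alpha-like cells. Enterochromaffin-like cells had 20296, 8877 and 13292 CPM of INS, 134, 1520 and 1376 CPM of GCG and 613, 685 and 651 CPM of TPH1. Cells of a class were therefore not alike in hormone levels between libraries. MAFA was under 1 CPM in every library. Markers of acinar, mesenchymal and pluripotent cells (for the last POU5F1, NANOG, LIN28A and DPPA4) were near 0, with summed levels of at most 1.79, 6.80 and 2.02 CPM in any library. The libraries shared 6, 2 and 4 barcodes in pairs.

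Ribosomal proteins are made in the cytoplasm, imported into the nucleolus and assembled with ribosomal RNA into the small and large subunits, and they are needed in nearly equal amounts. Most of their mRNAs begin with a C followed by an unbroken run of pyrimidines, the 5′ terminal oligopyrimidine tract, through which TOR signalling and the LARP1 protein control their translation as a group. In hormone-secreting islet cells this machinery supplies the ribosomes on which insulin and glucagon precursors are made.

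The shared start of these mRNAs is shown for the highest member (RPL3), for RPL41, for members that led the comparison of the sorted libraries (RPL13A, RPL27A and RPL31), for a paralog that has the run (RPL22L1), and for 3 members without it (RPS26, RPS27L and RPL26L1). Sequences are RefSeq's, build GRCh38.p14, 20 bases before to 20 bases from the annotated start, read 5′ to 3′ on the gene's strand, and capitals mark the run of C or T that begins with C. The run sought was a C followed by at least 4 more C or T, beginning within 5 bases of the annotated start, on the sense strand only.
RPL3, chr22:39319604-39319643, minus strand: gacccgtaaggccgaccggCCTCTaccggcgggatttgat
RPL41, chr12:56116613-56116652, plus strand: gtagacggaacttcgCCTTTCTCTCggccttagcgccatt
RPL13A, chr19:49487588-49487627, plus strand: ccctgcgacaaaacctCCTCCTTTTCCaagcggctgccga
RPL27A, chr11:8682772-8682811, plus strand: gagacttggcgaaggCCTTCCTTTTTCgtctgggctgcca
RPL31, chr2:101002269-101002308, plus strand: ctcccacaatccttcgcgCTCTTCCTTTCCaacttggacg
RPL22L1, chr3:170870176-170870215, minus strand: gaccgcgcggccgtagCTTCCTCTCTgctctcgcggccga
RPS26, chr12:56041898-56041937, plus strand: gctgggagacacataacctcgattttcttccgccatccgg
RPS27L, chr15:63157458-63157497, minus strand: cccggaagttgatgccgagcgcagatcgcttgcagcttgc
RPL26L1, chr5:172958709-172958748, plus strand: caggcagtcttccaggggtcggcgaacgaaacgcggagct

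Of the 88 members, 70 matched the RefSeq promoter table, and 53 of those (75.7%) held such a run. Among core members it was 50 of 62 (80.6%) and among paralogs 2 of 6 (33.3%), against 7408 of 35116 (21.1%) of all promoters in the table. The median run was 10 bases in the members and 3 bases in all promoters. A match describes these letters at the annotated start, and where a run was not found it says nothing of where transcription begins in these cells. RPL23, named below, is not shown.

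The members together supplied 6.12% of UMIs in the CD49a-positive library, 6.59% in the CD49a-negative library and 5.93% in the unsorted library. The 95% exact binomial (Clopper-Pearson) intervals extended at most 0.00529 percentage points to either side. Large subunit members made up 59.5%, 60.1% and 59.6% of these UMIs in the positive, negative and unsorted library. Core levels in the unsorted library ran from 155 CPM (RPL31) through a median of 706 CPM to 3274 CPM (RPL3), and the exact Poisson 95% interval of a core level reached at most 1.77% of its value to either side in any library. Libraries made from transcript ends give levels that are not per unit length, so the order of genes within a library is an order of UMIs.

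RPL3, which lies at the entrance to the peptidyl transferase centre, was the highest member, at 3658, 3550 and 3274 CPM in the positive, negative and unsorted library, where it held 5.52% of all ribosomal protein UMIs. RPL41, which encodes one of the shortest human proteins, stood at 2323, 2808 and 2417 CPM in the same order. RPS28, a small subunit protein near the mRNA exit, had 1649, 2075 and 1639 CPM. RPS3, which lines the mRNA entry channel, had 1582, 1646 and 1461 CPM. These 4 members together held 14.8% of ribosomal protein UMIs in the unsorted library. RPL3 was highest in the positive library, whereas RPL41, RPS28 and RPS3 were highest in the negative library.

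Among paralogs, RPL36AL had the highest level and RPS27L the next, near the lowest core genes (RPL31 at 181, 145 and 155 CPM in the positive, negative and unsorted library), and each paralog but RPL36AL was below its own partner. RPL36AL, a near-identical copy of RPL36A without introns, had 276, 340 and 275 CPM in the positive, negative and unsorted library, above the 214, 224 and 216 CPM counted for RPL36A itself. RPS27L stood at 113, 152 and 121 CPM beside 1259, 1217 and 1327 CPM of RPS27. RPL7L1, which acts in ribosome assembly, stood at 94.8, 101 and 97.5 CPM beside 310, 281 and 275 CPM of RPL7. Reads of near-identical copies, processed pseudogenes included, could be split or dropped by the counting, so levels of RPL36A, RPL36AL and other members with such copies are uncertain.

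RPL22L1, which can take the place of RPL22 in the large subunit, had 73.8, 86.8 and 70.7 CPM beside 382, 416 and 365 CPM of RPL22. RPL26L1 had 36.4, 56.0 and 41.4 CPM beside 557, 673 and 522 CPM of RPL26. RPL39L, best known from the testis, had 3.13, 4.21 and 2.91 CPM beside 1033, 1182 and 1057 CPM of RPL39. Each of these 3 paralogs and its partner was highest in the negative library.

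RPL3L, the paralog of heart and skeletal muscle, had 40, 0 and 5 UMIs in the positive, negative and unsorted library. RPL10L, the testis paralog of RPL10, had 0 UMIs in all 3 libraries, which allows levels up to 0.0245, 0.0355 and 0.0274 CPM by a floor of 3 counts per library, whereas RPL10 had 1109, 1260 and 1065 CPM. The read-through name RPS10-NUDT3 had 0.866, 0.804 and 1.04 CPM. RPL10L, RPL3L, RPL39L and RPS10-NUDT3 were too low for any comparison of libraries.

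Some ribosomal components fall outside the name rule. FAU, whose fusion protein releases RPS30, had 699, 861 and 696 CPM, and RACK1, a scaffold on the small subunit, had 541, 561 and 526 CPM. Their log2 ratios between the positive and the negative library, -0.30 and -0.05, had the sign that most members had.

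Single cells differed far more than libraries did. Per-cell ribosomal protein shares spanned 0.168 to 32.8% (positive library), 0.105 to 32.2% (negative) and 0.130 to 40.1% (unsorted). The medians were 5.92%, 5.98% and 5.61%, with quartiles of 4.19 to 8.08%, 4.08 to 7.65% and 3.72 to 7.19%. The distribution had a central range, a small group of cells under 1% and a high tail above 10% (the plot of cells by ribosomal protein share).

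**Figure D1:**
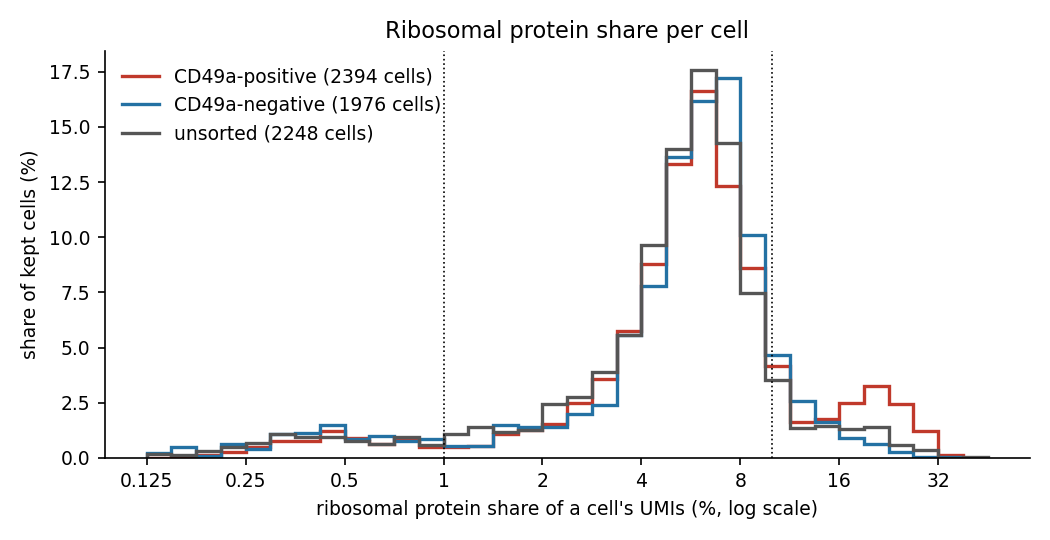
Percent of kept cells (y axis) by ribosomal protein share of each cell's UMIs (x axis, log scale), 1 line per library, with dotted lines at 1 and 10%. Most cells of each library lie between 2 and 10%; 6.52, 9.01 and 7.61% of positive, negative and unsorted cells lie under 1%, and 15.3%, 9.06% and 8.54% lie at 10% or above.

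A share between 2 and 10% was found in 5106 cells, which were 74.8, 77.9 and 79.0% of the positive, negative and unsorted cells. Under 1% lay 156, 178 and 171 cells, 505 together (7.63%), of which 302 were under 0.5% and 203 between 0.5 and 1%. A further 269 cells lay between 1 and 2%. The limit of 1% therefore cuts through a sparse stretch of the distribution and defines a range, not a cell type.

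Cells under 1% came mostly from a few clusters. They were 183 of the 613 cells of cluster 9 (enterochromaffin-like), 111 of the 644 cells of cluster 5 (alpha-like) and 124 of the 1017 cells of cluster 7 (no class name). Clusters 0, 2, 4, 8, 13, 14 and 16 had none, and the remaining clusters held smaller numbers. In cluster 9 they were 36.2, 29.9 and 28.7% of the positive, negative and unsorted cells. In cluster 7 they were 75 of 525, 23 of 192 and 26 of 300 cells, and in cluster 1 (beta-like) they were 4.73, 11.9 and 1.90%, so their share differed between libraries in some clusters. They had a median of 18603 UMIs and 4944 genes, and 9.40% mitochondrial UMIs.

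Within cluster 9, cells under 1% (pooled share 0.480%) were set against cells of 2 to 10% (4.66%), and the same was done in cluster 5 (0.432 against 4.78%) and cluster 7 (0.550 against 4.70%). The members' median log2 ratios of -3.04, -3.23 and -2.88 in clusters 9, 5 and 7 follow from the rule that chose the cells and are a description. What else was lower in the same cells was not used by that rule, although all values share each cell's total. Translation elongation factors had -2.61, -2.47 and -2.22, and other mRNAs known for a terminal oligopyrimidine tract had -2.47, -2.56 and -2.33.

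Nuclear-encoded respiratory chain genes had medians of -2.44, -2.27 and -1.97, and mitochondrial ribosomal proteins -1.71, -1.55 and -1.51. Hosts of small nucleolar RNAs (snoRNAs, which guide ribosomal RNA modification from within introns) had -1.84, -1.69 and -1.83. Initiation factors had -1.22, -1.22 and -1.12, and ribosome biogenesis genes -1.06, -1.12 and -0.78. Mitochondrially encoded mRNAs were near level, at -0.06, 0.27 and 0.04, TOR pathway genes were at 0.32, 0.33 and 0.25, and nuclear-retained long RNAs, MALAT1 among them, were at 0.63, 0.68 and 0.77. Some of these medians rest on few eligible genes in clusters 9, 5 and 7. They were 3, 2 and 2 nuclear-retained RNAs, 6, 5 and 7 TOR pathway genes, and 7, 6 and 5 ribosome biogenesis genes. All 4790, 4691 and 4522 eligible genes had medians of 0.25, 0.30 and 0.31. Cells poor in ribosomal protein mRNA were therefore also low in several other lists of nuclear-encoded mRNAs, whereas mitochondrially encoded mRNAs were near level.

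**Figure D2:**
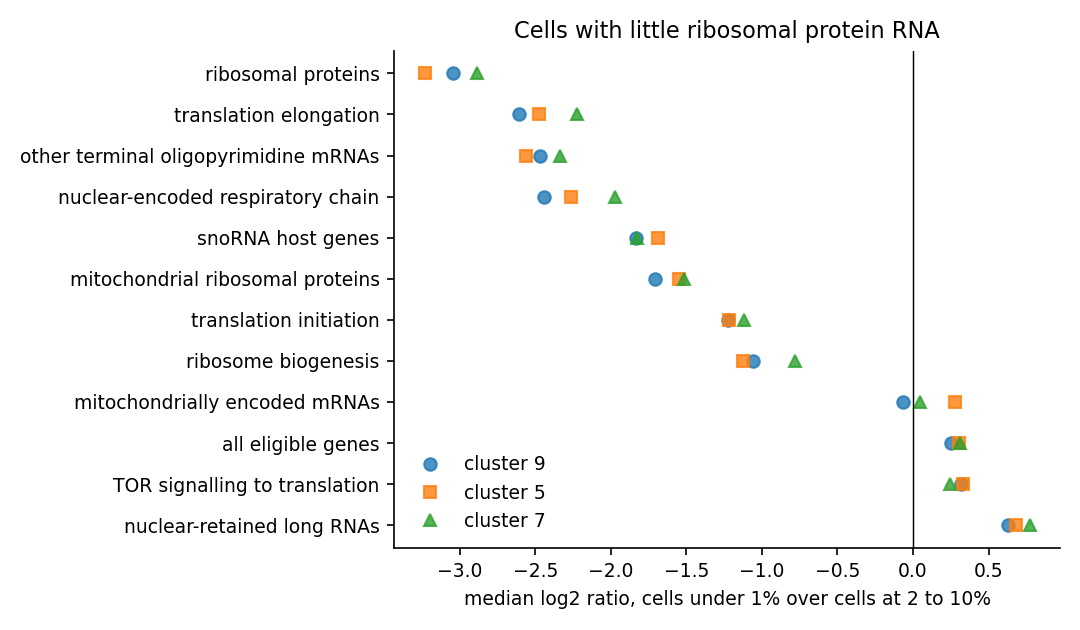
Median log2 ratio of the ribosomal protein genes, of other gene lists named in the text and of all eligible genes (x axis), cells with under 1% ribosomal protein UMIs over cells with 2 to 10%, in clusters 9, 5 and 7 (1 marker each). Of the lists drawn, the ribosomal protein list, which chose the cells, lies lowest, the elongation, other oligopyrimidine and respiratory chain lists follow, and nuclear-retained long RNAs lie highest, at 0.63 to 0.77. The nuclear-retained medians rest on only 3, 2 and 2 eligible genes in clusters 9, 5 and 7.

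The members were not lowered alike in these cells. RPL7L1 was the least lowered, at -1.37 in cluster 9, -1.86 in cluster 5 and -1.26 in cluster 7, and RPL31 stood at -1.73, -1.95 and -1.76. RPL39 stood at -3.45, -3.89 and -3.50, among the most lowered, and RPL36 reached -3.93 in cluster 5. Cells under 1% were also shallower, with medians of 20819 against 37968.5 UMIs in cluster 9, 16120 against 37592 in cluster 5 and 21475.5 against 56740 in cluster 7. Their MALAT1 shares were 2.38 against 1.74%, 2.77 against 2.05% and 2.06 against 1.55%. Hormone mRNA was lower as well: the per-cell median GCG share in cluster 5 was 0.280 against 3.74%, and the INS share in cluster 7 was 1.18 against 5.75%. The part of depth and RNA quality in these differences was not tested.

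At the high end, 367 positive (15.3%), 179 negative (9.06%) and 192 unsorted cells (8.54%) had at least 10% ribosomal protein UMIs. Clusters 8 and 14, whose median MALAT1 share was under 0.2% of UMIs (a limit set after the clusters were seen), held 289, 66 and 137 of them. The median depth of all cells at or above 10% was 3901, 46041 and 6001.5 UMIs in the positive, negative and unsorted library, against library medians of 48538.5, 36997 and 42257.5. High cells outside clusters 8 and 14 were deep instead: the 78 positive, 113 negative and 55 unsorted ones had medians of 79863.5, 79821 and 71765 UMIs, and lay chiefly in cluster 0 (beta-like) and cluster 3 (no class name). The range above 10% thus held both shallow and deep cells.

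MALAT1 is a long noncoding RNA that stays in the nucleus. Over quintiles of the MALAT1 share (5 equal parts of all kept cells), from lowest to highest, the ribosomal protein share was 9.62, 6.75, 5.70, 4.83 and 3.74% in the positive library. It was 9.54, 7.19, 5.87, 5.33 and 4.30% in the negative and 9.07, 6.67, 5.61, 4.92 and 4.15% in the unsorted library. Each library thus stepped down at every quintile. Across cells, Spearman's rho was -0.72, -0.63 and -0.60 for the positive, negative and unsorted library, a description over cells that share a library and whose 2 shares have the same denominator.

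Sequencing depth gave a different shape. Over quintiles of UMIs per cell, from shallowest to deepest, the share was 7.88, 4.46, 5.25, 5.75 and 6.80% in the positive library, 4.38, 5.43, 5.59, 6.75 and 8.38% in the negative, and 5.41, 4.62, 5.09, 5.83 and 6.86% in the unsorted library. The positive library's shallowest quintile was therefore its highest, and the negative library's shallowest quintile was its lowest. Shallow cells were split by MALAT1: the 594 cells lowest in both MALAT1 share and depth had 15.4%, and cells lowest in depth but highest in MALAT1 share had 2.08%. Thinned to 10000 UMIs per cell, which left out 330, 144 and 180 shallower cells, the libraries had 5.56, 5.87 and 5.33%. Each cell counts equally there, whereas the 6.12, 6.59 and 5.93% of all kept cells are shares of summed UMIs. Both sets of values thus differ in weighting and in cells, and their difference is not a measure of depth alone.

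**Figure D3:**
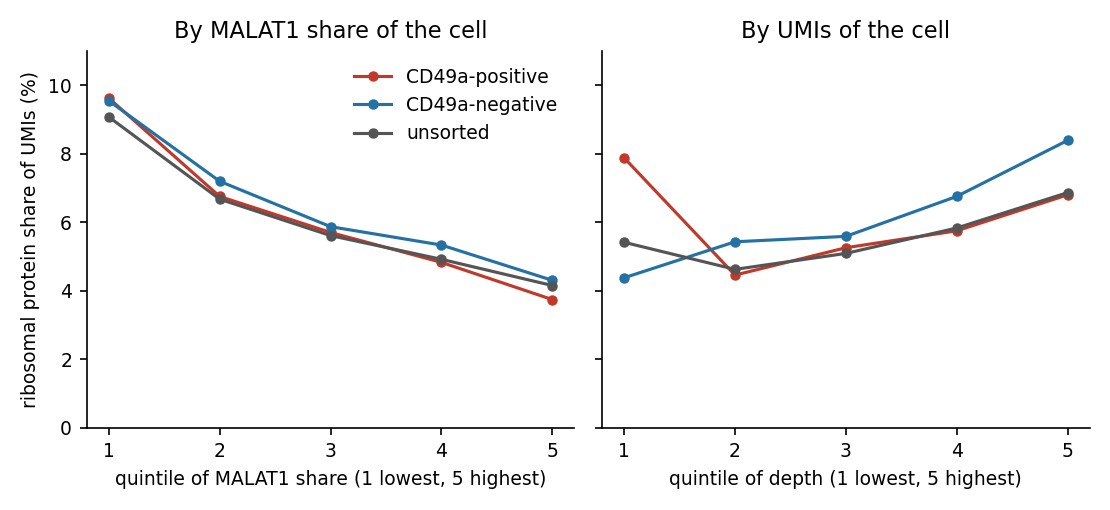
Ribosomal protein share of UMIs (y axis, percent, from 0) in quintiles of MALAT1 share and of UMIs per cell (x axes, lowest to highest), 1 line per library. The share steps down over MALAT1 quintiles in each library, from 9.62 to 3.74% in the positive one, whereas over depth the positive library starts high at 7.88% and the negative library starts low at 4.38%.

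The step over MALAT1 quintiles was common to nearly all members. Between the lowest and the highest quintile, 82 of 82 eligible members in the positive library were higher by a log2 ratio of 0.32 or more (the size rule used throughout, with no test), against 31.4% of all eligible genes, 80 of 82 in the negative library (30.8% of all) and 82 of 82 in the unsorted library (30.8% of all). The members' median log2 ratios were 1.32, 1.07 and 1.10, and those of all eligible genes -0.29, -0.26 and -0.25. RPL7L1 had the smallest ratio in the positive library and the unsorted library, at 0.48 and 0.32, and RPL27A the smallest in the negative library, at 0.24. RPS13 had the largest in the positive and the unsorted library, at 1.69 and 1.46, and RPL12 in the negative library, at 1.57. In the positive library other lists were higher in the same quintile too, with medians of 1.10 for snoRNA hosts, 1.08 for other oligopyrimidine mRNAs, 0.97 for the nuclear-encoded respiratory chain, 0.91 for elongation factors and 0.03 for mitochondrially encoded mRNAs.

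Clusters 8 and 14, with 304 positive, 84 negative and 153 unsorted cells, had the highest ribosomal protein shares, at 18.3, 13.7 and 16.3%. IAPP and CGA head the leading genes of cluster 8, and several ribosomal protein genes, RPL31 and RPS2 first, stand among them. SST, HHEX and CRH head those of cluster 14, with RPS2 further down. These levels are therefore a description of the clusters and no test of them. Against all other cells, 81 of 82 eligible members were higher by the size rule, against 32.8% of all eligible genes, with a median log2 ratio of 1.46. RPL31, RPS2 and RPL21 led at 1.91, 1.90 and 1.71, and RPL7L1 and RPL7 came last at 0.28 and 0.74. The same cells had medians of 3260, 4876 and 4589 UMIs and mitochondrial shares of 2.46, 3.42 and 1.89%, and mitochondrially encoded mRNAs had a median log2 ratio of -1.74. The cells were thus shallow, low in nuclear MALAT1 and low in mitochondrial RNA, and the part of RNA quality in their high share was not tested. Without these clusters the library shares were 5.98, 6.54 and 5.84%.

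**Figure D4:**
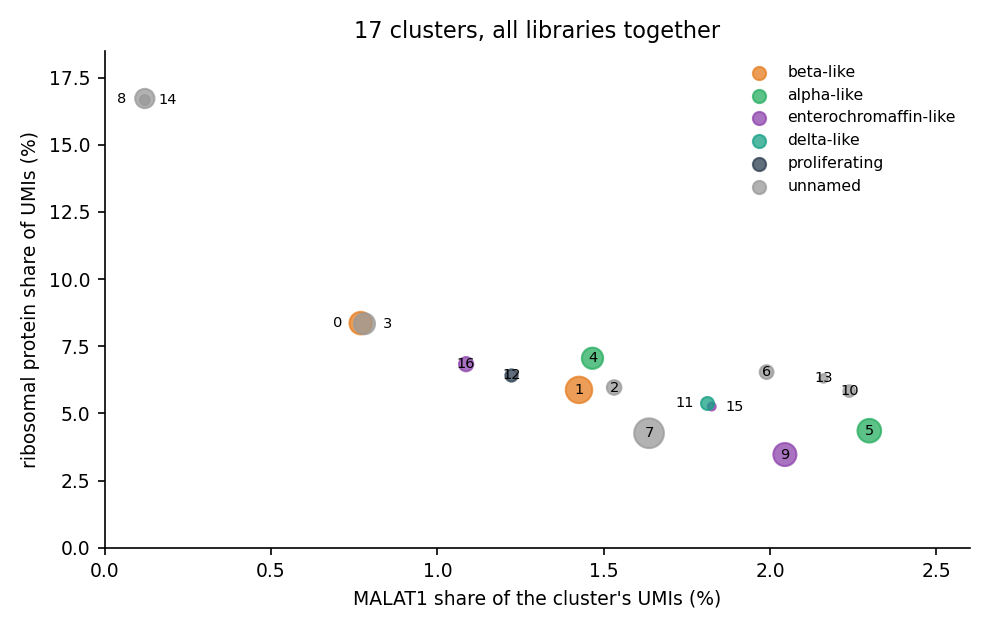
Ribosomal protein share (y axis, percent of UMIs) against MALAT1 share (x axis, percent of UMIs) of the 17 clusters, all libraries together; numbers name clusters, point area follows the number of cells and colour gives the class. Clusters 8 and 14 lie at the upper left, at 16.7% each, clusters 0 and 3 follow at 8.36 and 8.34%, and cluster 9 has 3.47%.

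The remaining clusters also differed. Clusters 0 and 3 had 8.36 and 8.34% ribosomal protein UMIs and low MALAT1 shares of 0.77 and 0.78%, cluster 4 had 7.06%, and cluster 9 had 3.47% at a MALAT1 share of 2.04%. Outside the members, the genes whose CPM followed the ribosomal protein share most closely over the 17 clusters, of 3873 genes of at least 50 CPM, were EIF3F (Spearman's rho 0.98), EI24 (0.97), STMP1 (0.97), HEBP2 (0.96) and NACA (0.96). EIF3F is a subunit of an initiation factor and NACA binds nascent chains at the ribosome. Over the 15 clusters other than 8 and 14, EI24 and EIF3F were again the closest, at 0.99 and 0.98. The clusters share libraries and depth differences, and these values are a description.

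The question behind the sort is how CD49a selection changes the islets, and here it is how far ribosomal protein genes differ between the fractions. The positive library's share was 0.470 percentage points below the negative library's and 0.193 above the unsorted library's, and the negative library's was 0.663 above the unsorted one. The direction between the sorted libraries differed between settings. With every cell weighted equally the positive library was 1.19 points higher. Cells reduced to 10000 UMIs were also weighted equally, but shallower cells were left out. The positive library was then lower than the negative one (5.56 against 5.87%). With the same makeup of the 17 clusters in each library the shares were 6.75, 6.56 and 6.54%, a difference of 0.191 points. Why the settings differed was not tested. Among the 10 clusters with at least 50 cells in both sorted libraries, 5 were higher and 5 lower in the positive one, with a median difference of -0.02 points and a range from -0.94 in cluster 3 to 3.29 in cluster 8. The direction between the sorted libraries was therefore not the same in all settings and clusters.

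On summed UMIs, 3 of 82 eligible members passed the size rule upward, positive over negative, against 10.1% of all 4241 eligible genes, and 8 were lower, against 16.4% of all. With every cell weighted equally (the mean of per-cell CPM) the counts were 24 higher and 0 lower, and the median log2 ratio turned from -0.11 to 0.25. No share or median of all eligible genes is given under that weighting. Whether these counts are particular to the members is therefore not known. On summed UMIs the median of -0.11 stood beside 0.03 for all eligible genes, with 21 members above 0 and 61 below. Against the unsorted library, the positive library had 2 of 81 members higher (3.21% of all genes) and 0 lower (4.32% of all), with a median of 0.05. The negative library had 3 of 82 members higher than the unsorted one (3.85% of all genes) and 0 lower (2.84% of all), with a median of 0.13. With the mean of per-cell CPM these became 24 higher and 0 lower against the unsorted library for the positive one. For the negative one they became 0 higher and 2 lower, again without a share of all genes. These comparisons share libraries in pairs and are not independent.

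Among the members that stood highest in the positive library were RPL23, RPS20, RPL27A, RPL31 and RPL13A. RPL23, a large subunit protein that also binds the p53 regulator MDM2, had 461, 319 and 350 CPM in the positive, negative and unsorted library, a log2 ratio of 0.52 of positive over negative. RPS20, a small subunit protein of the head, had 210, 150 and 168 CPM (0.45). For both of these genes the positive library was highest, the unsorted library intermediate and the negative library lowest.

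RPL27A had 588, 473 and 469 CPM in the positive, negative and unsorted library (0.31). RPL31, which lies by the exit of the peptide tunnel, had 181, 145 and 155 CPM (0.30), and RPL13A, known for a role in interferon-induced translational silencing, had 476, 396 and 426 CPM (0.26). Against the unsorted library the log2 ratios of RPL23, RPS20, RPL27A, RPL31 and RPL13A were 0.39, 0.31, 0.32, 0.21 and 0.16. The 2 sets of ratios share the positive library.

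At the other end stood RPL26L1 (log2 ratio -0.51), RPS26 (-0.45), RPS27L (-0.40), RPL19, RPL32 and RPL8 (-0.35 each). RPS26, a small subunit protein that contacts mRNA upstream of the start codon, had 413, 567 and 514 CPM in the positive, negative and unsorted library. RPL19, whose long helix bridges the subunits, had 740, 949 and 786 CPM. RPL32 had 807, 1033 and 840 CPM, and RPL8, which lies near the peptidyl transferase centre, had 720, 917 and 745 CPM. All 4 were lowest in the positive library. With the mean of per-cell CPM, RPL19 and RPL32 turned to 0.04 and 0.05.

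The leading members were placed in the genome by GENCODE release 29 on GRCh38, where all 88 members matched, on 22 chromosomes. RPL13A lies at chr19:49487554-49492308, on the chromosome that carries 12 members. RPL23 lies at chr17:38847865-38853843, RPL27A at chr11:8682411-8714759 and RPL31 at chr2:101001715-101024032. RPS26 lies at chr12:56041351-56044697 and RPL26L1 at chr5:172958729-172969771.

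Several of them carry snoRNA genes within their span: RPL13A has 4, RPL23 and RPL27A have 2 each and RPS20 has 1, and RPL31 carries none. Of all 77 core members, 28 do. Those 28 had a median log2 ratio of positive over negative of -0.03, and the other 49 had -0.13. Between MALAT1 quintiles of the unsorted library the same groups had medians of 0.98 and 1.14. By start run, 50 core members with it had a median of positive over negative of -0.11 and 12 without it -0.13. The other 15 core members, RPL23 and RPS20 among them, had no entry in the promoter table and a median of -0.01. These medians describe the members, and whether intronic reads entered the counts is not given in the sources used here.

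Within cell classes the picture depended on the class. Beta-like cells (clusters 0 and 1: 878 positive, 143 negative and 371 unsorted cells) had ribosomal protein shares of 7.01, 7.09 and 7.07%. Alpha-like cells (clusters 4 and 5: 239, 481 and 445 cells) had 5.20, 6.04 and 5.58%. Enterochromaffin-like cells (clusters 9, 15 and 16: 80, 395 and 445 cells) had 4.14, 5.23 and 4.28%. Positive minus negative was thus -0.08, -0.84 and -1.09 points. At equal makeup of each class's clusters these became 0.386, -0.34 and -0.18 points. In the beta-like cells the sign also turned under other settings, so no direction is given for them.

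The enterochromaffin-like clusters show how makeup enters. Cluster 9 (58 positive, 234 negative and 321 unsorted cells) had 3.73, 3.56 and 3.36%, and cluster 16 (12, 133 and 90 cells) had 6.62, 7.13 and 6.43%. The positive library was higher in cluster 9 and lower than the negative one in cluster 16, and cluster 16 held few of its cells. Cells under 1% made up 30% of the positive enterochromaffin-like cells, 18.2% of the negative and 21.1% of the unsorted ones. They were 10.5, 10.6 and 7.87% of alpha-like cells and 2.85, 5.59 and 1.08% of beta-like cells. Without cells under 1%, the shares were 5.0, 5.69 and 4.89% in enterochromaffin-like, 5.46, 6.30 and 5.74% in alpha-like, and 7.09, 7.26 and 7.1% in beta-like cells.

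In beta-like cells, 4 of 81 eligible members passed the size rule upward in the positive library (2.7% of all genes) and 0 were lower (1.94% of all). RPS20, RPL23 and RPL31 were among them. RPS20 had 228, 150 and 187 CPM in the positive, negative and unsorted beta-like cells (log2 ratio 0.58). RPL23 had 535, 385 and 434 CPM (0.46). The order of the libraries was the same as over all kept cells. The lowest were RPS27L (-0.25), RPL19 (-0.17) and RPL18 (-0.17).

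In alpha-like cells, 2 of 82 members were higher (8.34% of all genes) and 13 lower (9.42% of all), with a median of -0.21. RPS20 was higher, at 192, 132 and 154 CPM (0.51), and RPL23 had a ratio of 0.24, under the size rule. RPL36AL (-0.39), RPL7A (-0.38) and RPS13 (-0.37) were lowest.

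In enterochromaffin-like cells, 0 of 82 members were higher (20.4% of all genes) and 45 lower (23.6% of all), with a median of -0.35. Among those above 0 were RPL27A with 435, 386 and 362 CPM (0.17) and RPL31 with 128, 117 and 110 CPM (0.12). RPL26L1 (-0.68), RPS26 (-0.66) and RPL41 (-0.64) were lowest. RPL41 had 1255, 1959 and 1484 CPM, and RPS26 had 364, 581 and 480 CPM. The class had only 80 positive cells, and its difference in ribosomal protein share came to -0.18 points at equal makeup of its clusters.

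All of RPL23, RPS20, RPL27A, RPL31 and RPL13A were above 0 in each of the 3 classes and among the 10 highest of the 81 or 82 eligible members there. The classes come from the same libraries, so this is no independent repeat. Within clusters 8 and 14, RPS20 had 621, 195 and 292 CPM in the positive, negative and unsorted library (1.62). There 59 of 82 members passed the size rule upward in the positive library (14.7% of all genes), with a median of 0.38. Without clusters 8 and 14, RPL23 and RPS20 over all other cells had log2 ratios of 0.49 and 0.43. Both ratios thus stayed positive without those clusters. Both genes were named for this ratio over all kept cells, and the part of RNA quality in it was not tested.

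**Figure D5:**
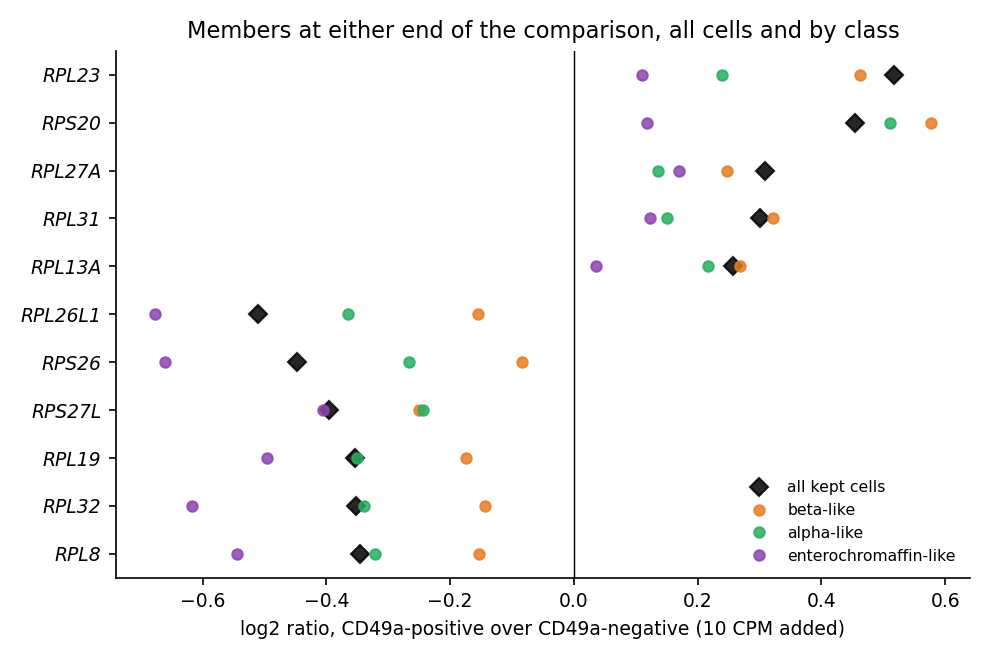
Log2 ratio of the CD49a-positive over the CD49a-negative library (x axis, 10 CPM added to both) for members at either end of the comparison (y axis), over all kept cells (diamonds) and within beta-like, alpha-like and enterochromaffin-like cells (circles). RPL23, RPS20, RPL27A, RPL31 and RPL13A lie above 0 in every class. RPL26L1, RPS26, RPS27L, RPL19, RPL32 and RPL8 lie below 0 in every class, reaching -0.68 in enterochromaffin-like cells. RPL26L1 was under 50 CPM in beta-like cells and not eligible there. The members were picked by the ratio over all kept cells, which include the cells of these classes.

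Between classes, a set of paralogs and RPS26 varied in their share of ribosomal protein mRNA. As a share of ribosomal protein UMIs in the unsorted library, RPL22L1 made up 0.129% in beta-like, 0.0847% in alpha-like and 0.141% in enterochromaffin-like cells, a range of 0.73 on the log2 scale. Its levels there were 90.9, 47.3 and 60.3 CPM. Alpha-like cells had its lowest share in all 3 libraries, with log2 ranges of 0.73 in the positive and 0.93 in the negative library.

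RPL7L1 made up 0.143, 0.175 and 0.218% (range 0.61), yet its levels of 101, 97.7 and 93.4 CPM were close, so its share followed the total of the other members. RPS27L, a p53-regulated paralog, made up 0.175, 0.257 and 0.208% (range 0.56), with levels of 124, 143 and 89.0 CPM. RPL26L1 made up 0.0599, 0.0768 and 0.0880% (range 0.55). These 4 paralogs had the largest ranges across the 3 classes of the unsorted library, among members eligible for a comparison of libraries over all kept cells. RPL26L1 was under 50 CPM in each of these classes, at 42.4, 42.8 and 37.7 CPM in unsorted beta-like, alpha-like and enterochromaffin-like cells. In the negative library the core gene RPS26, at 0.690% in beta-like, 0.735% in alpha-like and 1.11% in enterochromaffin-like cells, had a range of 0.69, above those of RPL26L1 (0.64), RPL7L1 (0.47) and RPS27L (0.33).

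Other lists tied to ribosomes and translation give the setting. Positive over negative, elongation factors had a median log2 ratio of -0.07, initiation factors -0.02, other oligopyrimidine mRNAs -0.06 and snoRNA hosts -0.07. All of these lay between the members' -0.11 and the 0.03 of all eligible genes. Within the oligopyrimidine list TPT1 had 0.27 and BTF3, a nascent-chain binding factor, had -0.32. Ribosome biogenesis genes had -0.29, mitochondrial ribosomal proteins -0.35 (21 of 36 lower by the size rule, against 16.4% of all genes) and the nuclear-encoded respiratory chain -0.47 (58 of 72 lower). TOR pathway genes had 0.09 and mitochondrially encoded mRNAs 0.05. MALAT1 had 13861, 14534 and 14858 CPM (-0.07), and NEAT1 had 17.6, 33.0 and 18.9 CPM. On summed UMIs over all kept cells, cytosolic ribosomal proteins thus lay closer to 0 than mitochondrial ribosomal proteins did, a difference that was not tested. The members' median turned positive with the mean of per-cell CPM, and the other lists have no value here under that weighting or within classes.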

How the data were processed

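Single-cell RNA was measured in 3 libraries, 1 per group. The deposited files hold UMI counts per gene and barcode, made by the authors with Cell Ranger 7.1.0 on GRCh38, per the submitters' processing notes; whether introns were counted is not given in the sources used here. Kept cells had 1000 or more genes and a mitochondrial share of UMIs no higher than 20%. Scrublet (scanpy 1.11.5) marked 8 of 6626 cells, which were removed; at that share the caller has not worked, so pairs of cells may remain. Counts scaled to 10000 per cell, 2000 variable genes (2 of them members), 30 components and a graph of 20 neighbours went into Leiden clustering, which at resolution 1 returned 17 clusters. In every cluster with a class name, except the proliferating one (cluster 12), 1 marker list led the others by 0.5 in mean log2. This lead alone did not give a name. Clusters 7 and 8 stayed unnamed although the beta list led the next, at 0.434 against -0.084 and 0.153 against -0.584. The naming rule was fixed with the clusters already known. UMIs were summed per library, or per library and class, and given as CPM. Log2 ratios have 10 CPM added to both sides. Genes with at least 50 CPM and 50 UMIs in the higher library were eligible, and a log2 ratio of 0.32 or more either way is a rule of size, not a test. Intervals are exact (95%).

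Genes were named by rule: the 4 highest members, the members with the 6 highest and 6 lowest ratios of the sorted libraries, 3 each way in each class, the 4 with the widest range across classes, and every paralog with its partner. The RPS10-NUDT3, RPL39L, RPL26L1 and RPL22L1 names are the 4 lowest members with at least 50 UMIs in every library. A few items that this rule takes in are not reported here. Members, lists, classes and rules were chosen with earlier results of these data known. Start sequences are RefSeq's (GRCh38.p14) and gene spans GENCODE 29's. The code was tested on simulated data. Python 3.11.15, numpy 2.4.6, scipy 1.17.1 and pandas 2.3.3 were used. Alternatives tried were another cell filter, denominators, pseudocounts of 1 and 50 CPM, median-of-ratios scaling, a 1.5-fold rule, thinning, equal makeup, other resolutions (0.5 and 2) and sets of cells left out.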

Additional observations from a re-analysis of the deposited data

Results flagged for a closer look

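The ribosomal protein share differed between the sorted libraries in opposite directions in different cells. In clusters 8 and 14 the positive library was 4.57 percentage points above the negative one (18.3 against 13.7%), and in all other kept cells it was 0.56 points below (a difference of -0.56, 5.98 against 6.54%). The difference between these was not tested, since each group is 1 library. The cells of clusters 8 and 14 had medians of 3260 and 4876 UMIs in the positive and negative library, and the part of depth was not tested.

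Barcodes outside the cell filter carried members' UMIs as well. Barcodes that failed the gene minimum alone had a ribosomal protein share of 15.3% in the positive library (1287 barcodes), against 8.10% in the unsorted (150 barcodes) and 6.55% in the negative library (118 barcodes). Barcodes that failed the mitochondrial limit alone had 4.88, 4.14 and 3.99% in the positive, unsorted and negative library.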

How the results depend on the processing

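No paired analysis was possible because each group is 1 library. No library can stand for the spread between islet batches. Values at 10000 UMIs leave out 330, 144 and 180 shallower cells of the positive, negative and unsorted library. They also weight each remaining cell equally, unlike the shares of summed UMIs. Of 96 recomputed log2 ratios of members named for the sorted libraries, 94 kept their sign; RPL19 and RPL32 turned to 0.0435 and 0.0515 with the mean of per-cell CPM. The cause of each change below was not tested. Leaving out clusters 8 and 14, equal cluster makeup and counting cluster 7 as beta-like were chosen after seeing the data.

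The difference in ribosomal protein share, in percentage points for positive minus negative, positive minus unsorted and negative minus unsorted, was -0.371, 0.280 and 0.651 with a wider cell filter (500 genes or more, up to 30% mitochondrial UMIs), and -0.301, 0.315 and 0.616 over all barcodes. It was -0.385, 0.234 and 0.619 without INS, GCG and SST in the denominator, -0.304, 0.232 and 0.536 in cells reduced to 10000 UMIs, -0.416, 0.219 and 0.635 without proliferating cells and -0.562, 0.141 and 0.702 without clusters 8 and 14. The mean of per-cell shares gave 1.19, 1.27 and 0.0797, equal makeup of MALAT1 quintile and class -0.394, -0.0348 and 0.359, and equal cluster makeup 0.191, 0.219 and 0.0280. Without MALAT1 in the denominator positive minus negative was -0.482 and negative minus unsorted 0.671, without paralogs and read-through they were -0.456 and 0.650, and without mitochondrially encoded genes positive minus unsorted was 0.237 and negative minus unsorted 0.705.

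The median log2 ratio of members, in the same order of libraries, was -0.0390, 0.0935 and 0.10 with median-of-ratios scaling, 0.25, 0.26 and 0.0142 with the mean of per-cell CPM, -0.0997, -0.00722 and 0.0720 at equal makeup and -0.13, 0.0428 and 0.15 without clusters 8 and 14. Median-of-ratios scaling also moved the medians of all eligible genes, from 0.03, 0.01 and -0.02 to 0.09, 0.05 and -0.05. The members' median for positive over negative was -0.10 with a pseudocount of 50 CPM or no filter on low genes. With the wider cell filter positive over negative was -0.0900 and positive over unsorted 0.0721, and with a pseudocount of 1 CPM negative over unsorted was 0.14. Members past the size rule upward in the positive against the negative library numbered 6 with median-of-ratios scaling, 5 with the wider cell filter and 24 with the mean of per-cell CPM; members lower numbered 5 with a pseudocount of 50 CPM, 3 with median-of-ratios scaling, 0 with the mean of per-cell CPM and 1 at equal makeup. Members higher in the positive than the unsorted library numbered 1 with a pseudocount of 50 CPM or without clusters 8 and 14, 4 with median-of-ratios scaling or the wider cell filter and 24 with the mean of per-cell CPM, and 1 was lower without clusters 8 and 14. Members higher in the negative than the unsorted library numbered 0 with the mean of per-cell CPM, where 2 were lower, and 0 at equal makeup. At 1.5-fold, 0 members passed in any of these comparisons. The counts of members under these other settings have no share of all genes beside them.

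Within classes, positive minus negative in beta-like cells was -0.164 at resolution 0.5, 0.0516 at resolution 2, -0.0339 without MALAT1 and mitochondrially encoded genes in the denominator, 0.170 at 10000 UMIs, 0.386 at equal cluster makeup and 0.508 with cluster 7 counted as beta-like. In alpha-like cells the first 5 of these gave -0.862, -1.03, -0.859, -0.753 and -0.343, and in enterochromaffin-like cells -0.569, -0.507, -1.18, -0.985 and -0.181.

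Without MALAT1 and mitochondrially encoded genes in the denominator, the lowest minus the highest MALAT1 quintile was 6.40, 5.56 and 5.18 points in the 3 libraries (positive, negative, unsorted), and the shallowest minus the deepest quintile was 1.04, -4.27 and -1.55. Over all barcodes the MALAT1 difference was 4.94 (negative) and 4.46 (unsorted), and the depth difference was 1.31, -4.51 and -2.33. In beta-like cells only, the MALAT1 difference was 4.94 in the positive and 2.41 in the unsorted library, and the depth difference was -3.69 in the positive library, against 1.08 over all its kept cells, and -5.00 in the negative library. Beta-like cells gave no value for the MALAT1 difference (negative) and the depth difference (unsorted), where a quintile held under 10 cells.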
